A study of Mus musculus with 3 samples.

Results

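Intergenic H3K4me3 peaks that hold ETV5 were 756 of the 15122 H3K4me3 peaks on chromosomes 1 to 19 and X in alveolar type II (AT2) cells, the surfactant-producing cells of the lung alveolus. A peak was taken when it was shorter than 3500 bp, overlapped an ETV5 peak by at least 1 bp, and had its summit outside every protein-coding gene and more than 5 kb from every protein-coding gene end. These 756 made up 52.9% of the 1430 intergenic H3K4me3 peaks of that length. The other 674 lacked an ETV5 peak. At protein-coding gene ends, where the summit lay within 1 kb of an end, 9054 of 9747 peaks held ETV5 (92.9%), and inside protein-coding genes, more than 5 kb from an end, 1091 of 1676 did (65.1%). Across all H3K4me3 peaks on these chromosomes the share was 84.2%, and across those under 3500 bp it was 83.9%. The peaks were chosen by their ETV5 overlap, H3K4me3 width and summit position, so these shares describe the choice.

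The study profiled ETV5 (Proteintech antibody) and H3K4me3 (Abcam antibody) by chromatin immunoprecipitation and sequencing, with an input library. All 3 samples were AT2 cells of C57BL/6 mice at 10 to 12 weeks of age with no treatment named, and each had 1 library, so no value below has a replicate check and no test of a difference was possible. Fold enrichment is the deposited ratio of the ChIP pileup at the summit to its expected background, pileup is the number of overlapping extended tags there, and the folds of the ETV5 and H3K4me3 lists are on scales of their own. The ETV5 list was called from 5715049 tags against 27495486 input tags, and the H3K4me3 list from 34907608 tags against 44758677 input tags. Intervals are exact 95% Clopper-Pearson intervals for shares and binomial intervals for medians, and cover counting error only. The cell label was set against marker genes. H3K4me3 lay at an end of 22 of 25 AT2 markers (not at Lyz1, Hc or Dlk1). It lay at 13 of 20 AT1 markers (not at Hopx, Pdpn, Clic5, Igfbp2, Cldn18, Spock2 or Sema3a). The counts were 2 of 15 for endothelial, 1 of 15 for mesenchymal, 5 of 19 for leukocyte and 7 of 18 for ciliated and secretory markers. No share over all protein-coding genes is given beside these counts, so they compare the lists only with each other.

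H3K4me3, trimethylation of lysine 4 on histone H3, is laid down at active and poised promoters, including those of long noncoding RNA (lncRNA), microRNA and many tRNA genes, and at lower levels at some enhancers. ETV5 is an ETS-family transcription factor of the PEA3 group that acts downstream of FGF and RAS-ERK signalling and is needed to keep the AT2 cell state in mice. ETS factors bind DNA through a GGAA core, and the preferred site of this group extends it to CCGGAA. A promoter of a noncoding RNA gene far from any protein-coding gene would fall among these intergenic peaks.

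Start sites of lncRNA genes gave the sequences that show the core beside strong ETV5 peaks. The windows below run from 250 bases before to 50 bases after the annotated start (RefSeq, GRCm38.p6), read in the direction of transcription. Capitals mark CCGGAA or, on the opposite strand, TTCCGG. The first 3 lines are lncRNA genes whose nearby peak had a strong ETV5 summit and whose window held the core, and the last 2 had a strong ETV5 summit and no core in the window. They are examples and not a ranking: Junos (59.6-fold) and Gm35239 (54.3-fold) are not printed. Of all 29 peaks at lncRNA starts with ETV5 of at least 20-fold, 14 had the core in a window.
Gm2885: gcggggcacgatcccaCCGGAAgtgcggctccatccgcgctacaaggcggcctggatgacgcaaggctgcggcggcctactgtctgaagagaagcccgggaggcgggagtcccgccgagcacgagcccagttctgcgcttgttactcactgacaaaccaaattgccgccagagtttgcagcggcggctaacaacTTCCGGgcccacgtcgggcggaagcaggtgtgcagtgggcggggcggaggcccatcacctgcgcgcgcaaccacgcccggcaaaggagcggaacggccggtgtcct
Gm38424: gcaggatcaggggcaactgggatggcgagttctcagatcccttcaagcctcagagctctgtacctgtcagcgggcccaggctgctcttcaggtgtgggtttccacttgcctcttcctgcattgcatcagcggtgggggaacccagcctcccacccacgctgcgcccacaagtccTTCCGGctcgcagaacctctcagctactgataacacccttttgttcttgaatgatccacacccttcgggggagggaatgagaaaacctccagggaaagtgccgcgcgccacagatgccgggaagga
Snhg20: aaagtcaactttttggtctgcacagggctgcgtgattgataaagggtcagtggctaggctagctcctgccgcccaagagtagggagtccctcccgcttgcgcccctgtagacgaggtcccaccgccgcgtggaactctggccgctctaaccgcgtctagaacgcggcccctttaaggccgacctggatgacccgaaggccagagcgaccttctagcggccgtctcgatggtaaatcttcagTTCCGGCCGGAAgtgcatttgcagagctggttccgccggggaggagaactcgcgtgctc
E230001N04Rik: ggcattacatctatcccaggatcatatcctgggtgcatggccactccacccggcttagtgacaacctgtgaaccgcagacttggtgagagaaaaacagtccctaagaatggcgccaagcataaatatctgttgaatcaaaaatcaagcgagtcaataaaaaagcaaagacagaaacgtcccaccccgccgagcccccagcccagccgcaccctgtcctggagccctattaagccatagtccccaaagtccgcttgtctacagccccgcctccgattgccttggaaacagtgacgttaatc
D130051D11Rik: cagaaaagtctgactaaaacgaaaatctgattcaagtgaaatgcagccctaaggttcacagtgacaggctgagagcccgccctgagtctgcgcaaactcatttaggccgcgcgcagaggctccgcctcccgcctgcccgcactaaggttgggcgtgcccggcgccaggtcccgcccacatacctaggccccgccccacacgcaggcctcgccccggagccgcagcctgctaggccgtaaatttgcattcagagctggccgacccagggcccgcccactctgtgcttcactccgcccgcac
The Gm2885 window (chr17:6827967-6828266, minus strand) held 2 copies of CCGGAA, both within the longer CCGGAAGT when both strands are read, and the nearer lay 71 bp from an ETV5 summit of 85.6-fold. In the Gm38424 window (chr5:31596705-31597004, plus strand) the single core lay 30 bp from an ETV5 summit of 55.4-fold. The Snhg20 window (chr11:117076533-117076832, plus strand) held 2 abutting copies on opposite strands, 51 bp from an ETV5 summit of 48.5-fold. E230001N04Rik (chr17:28522406-28522705, plus strand) had an ETV5 summit of 74.8-fold that lay 551 bp past its start, outside the window. D130051D11Rik (chr15:85634346-85634645, plus strand) had one of 63.1-fold, 142 bp past its start and likewise outside the window.

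The intergenic peaks with ETV5 were stronger and wider in H3K4me3 than intergenic peaks without it and weaker than gene-end peaks with it. The median H3K4me3 fold was 9.18 (interval 8.21 to 10.0) with ETV5, 5.44 (5.11 to 5.70) without ETV5 and 33.9 at gene ends with ETV5. Median width was 788.5 bp with ETV5, 510 bp without ETV5 and 1377.5 bp at gene ends with ETV5. Median H3K4me3 pileup followed the same order, at 61 tags with ETV5, 36 without ETV5 and 234 at gene ends with ETV5. Of the 756 peaks, 352 reached an H3K4me3 fold of 10 (46.6%), against 16.5% of intergenic peaks without ETV5, 90.1% of gene-end peaks with ETV5 and 73.8% of all H3K4me3 peaks under 3500 bp. The distributions overlapped widely: the quartiles ran from 5.18 to 18.0 with ETV5 and from 4.08 to 8.31 without ETV5. The intergenic sets were split by an overlap with ETV5 of at least 1 bp, which a wider peak meets more easily. How far that choice sets the differences in width and fold was not tested.

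**Figure D1:**
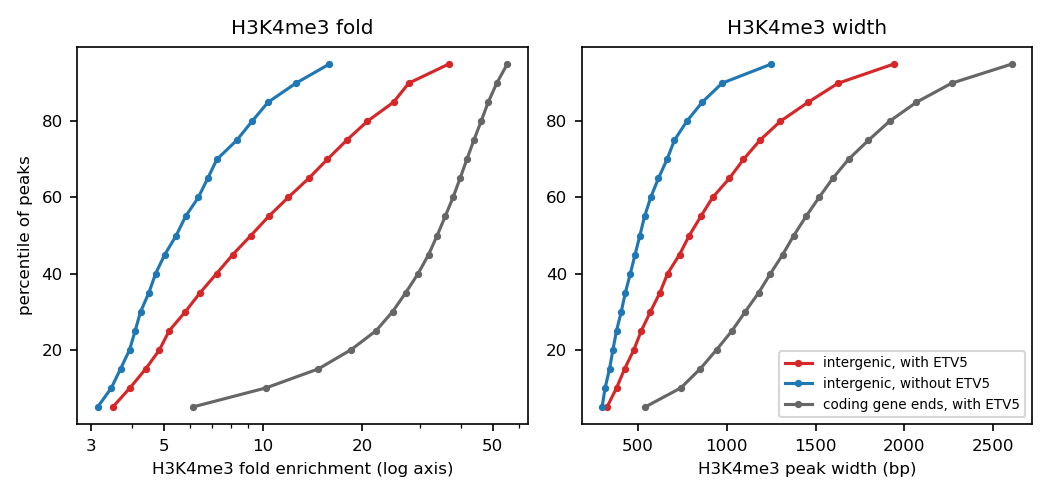
Percentiles of H3K4me3 fold enrichment (left, log axis) and H3K4me3 peak width in bp (right), with the percentile of peaks on the vertical axis, for intergenic peaks with ETV5 (n = 756), intergenic peaks without ETV5 (n = 674) and protein-coding gene-end peaks with ETV5 (n = 9054), all under 3500 bp. The curve of the intergenic peaks with ETV5 lies between the others, with median folds of 9.18 with ETV5, 5.44 without ETV5 and 33.9 at gene ends.

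ETV5 itself was weaker at intergenic than at gene-end H3K4me3 peaks, with a long upper tail. The strongest ETV5 peak in each of the 756 had a median fold of 8.02 (interval 7.57 to 8.53), a median pileup of 16 tags and a range of 3.12 to 88.4-fold, against a median of 13.9-fold and 30 tags at gene ends. An ETV5 fold of at least 10 was reached by 272 (36%), against 69% at gene ends and 53.6% of all H3K4me3 peaks under 3500 bp. At least 20-fold was reached by 99, and at least 30-fold by 52. A median of 16 tags is a shallow measurement, so the order of most peaks by ETV5 fold is loose, while each of the top 10 rests on at least 105 tags.

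Most of these peaks held 1 ETV5 summit close to their own. There were 686 with 1 ETV5 peak, 65 with 2 and 5 with 3, so 9.26% held at least 2, against 17.3% at gene ends and 14.7% of all H3K4me3 peaks under 3500 bp. The 818 distinct ETV5 peaks included 13 shared by more than 1 of the 756, which involved 26 of them, and those are not separate observations of ETV5. In 643 (85.1%) the summit of the strongest ETV5 peak lay inside the H3K4me3 peak. Its median distance from the H3K4me3 summit was 174 bp, against 200 bp at gene ends, and 434 (57.4%) lay within 200 bp, against 50.3% at gene ends. Both sets were taken by their overlap with ETV5, which keeps the summits close. The intergenic peaks were also narrower (median 788.5 bp against 1377.5 bp), and the part of width in this spacing was not tested.

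The stronger the H3K4me3 at an intergenic peak, the more often it held ETV5. Below an H3K4me3 fold of 5, ETV5 was present in 34.9% of 461 intergenic peaks (interval 30.6 to 39.5). From 5 to 10 the share was 48.0% of 506, from 10 to 20 it was 66.2% of 290, and at 20 or more it was 92.5% of 173 (interval 87.5 to 95.9). The top share came close to the 92.9% of all gene-end peaks. Within the 756, Spearman's rho between ETV5 fold and H3K4me3 fold was 0.28 (n = 756 peaks), against 0.417 across gene-end peaks with ETV5 (n = 9054). The peaks in each correlation share the same pair of libraries. How far depth, peak width and open chromatin set these shares and correlations was not tested.

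Noncoding RNA genes lay beside a larger share of these peaks than of intergenic peaks without ETV5. The end of a noncoding RNA gene was within 1 kb of the H3K4me3 summit in 255 of 756 (33.7%, interval 30.4 to 37.2), against 132 of 674 without ETV5 (19.6%, interval 16.7 to 22.8), 13.4% of gene-end peaks with ETV5 and 14.3% of all H3K4me3 peaks under 3500 bp. By kind, lncRNA ends lay beside 212 (28%) with ETV5 and 16.3% without ETV5, against 12.5% of all. For tRNA genes the counts were 43 with ETV5 (5.69%) and 14 without ETV5 (2.08%), against 0.765% of all. Pseudogene ends, counted apart, lay beside 36 with ETV5 (4.76%) and 11 without ETV5 (1.63%), against 0.935% of all. With pseudogenes added, a noncoding gene lay beside 38.2% with ETV5 and 21.2% without, against 14% of gene-end peaks and 15.2% of all. Smaller kinds were few in both intergenic sets: miRNA genes lay beside 5 with ETV5 (0.661%) and 3 without (0.445%), against 0.731% of all, and snRNA genes beside 7 with ETV5 (0.926%) and 6 without (0.89%), against 0.244% of all. snoRNA genes lay beside 3 with ETV5 (0.397%) and 0 without, which allows up to 0.546% by the exact interval, against 0.325% of all.

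Much of that difference moved with H3K4me3 fold. Below 5-fold the noncoding share was 19.3% with ETV5 and 18.3% without. From 5 to 10 it was 26.7% with ETV5 (interval 21.3 to 32.8) and 15.6% without (interval 11.4 to 20.5), the only range in which the intervals did not overlap. From 10 to 20 it was 34.9% with ETV5 and 27.6% without, and at 20 or more it was 57.5% of 160 with ETV5 and 69.2% without, the last from 9 of 13 peaks. With ETV5 the share went up over each range of H3K4me3 fold, and without ETV5 it was lowest from 5 to 10 and higher above that.

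**Figure D2:**
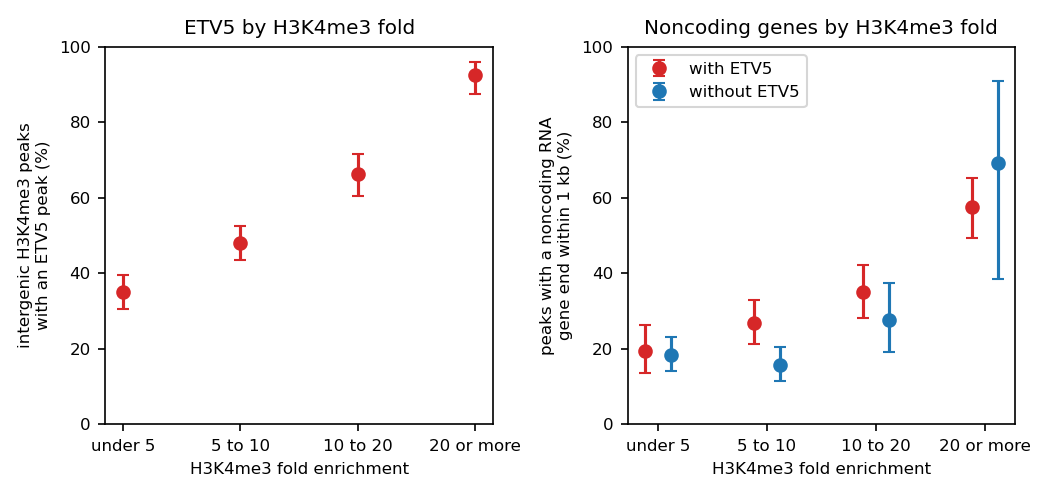
Left, percent of intergenic H3K4me3 peaks that hold an ETV5 peak by range of H3K4me3 fold enrichment, from 34.9% below 5 to 92.5% at 20 or more. Right, percent with a noncoding RNA gene end within 1 kb, with ETV5 and without ETV5, over the same ranges, with bars for exact 95% intervals; at 20 or more the shares are 57.5% with ETV5 and 69.2% of only 13 peaks without.

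Each peak was then given 1 annotation class, in the order tRNA gene, lncRNA gene end, other noncoding RNA gene, pseudogene, inside a lncRNA gene, or none of these. There were 43 beside tRNA genes, 201 at lncRNA ends, 11 beside other noncoding RNA genes, 34 beside pseudogenes and 83 deeper inside lncRNA genes, and the remaining 384 (50.8%) had none of these. ETV5 was present at 43 of 57 intergenic H3K4me3 peaks beside tRNA genes (75.4%, interval 62.2 to 85.9), 34 of 45 beside pseudogenes (75.6%) and 201 of 309 at lncRNA ends (65.0%, interval 59.4 to 70.4). It was present at 83 of 194 deeper inside lncRNA genes (42.8%) and 384 of 804 with none of these (47.8%). H3K4me3 differed more between classes than ETV5 did: median H3K4me3 fold was 25.3 beside tRNA genes, 12.4 at lncRNA ends and 7.20 in the unannotated class, while median ETV5 fold was 9.35 beside tRNA genes, 8.46 at lncRNA ends and 7.71 in the unannotated class.

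**Figure D3:**
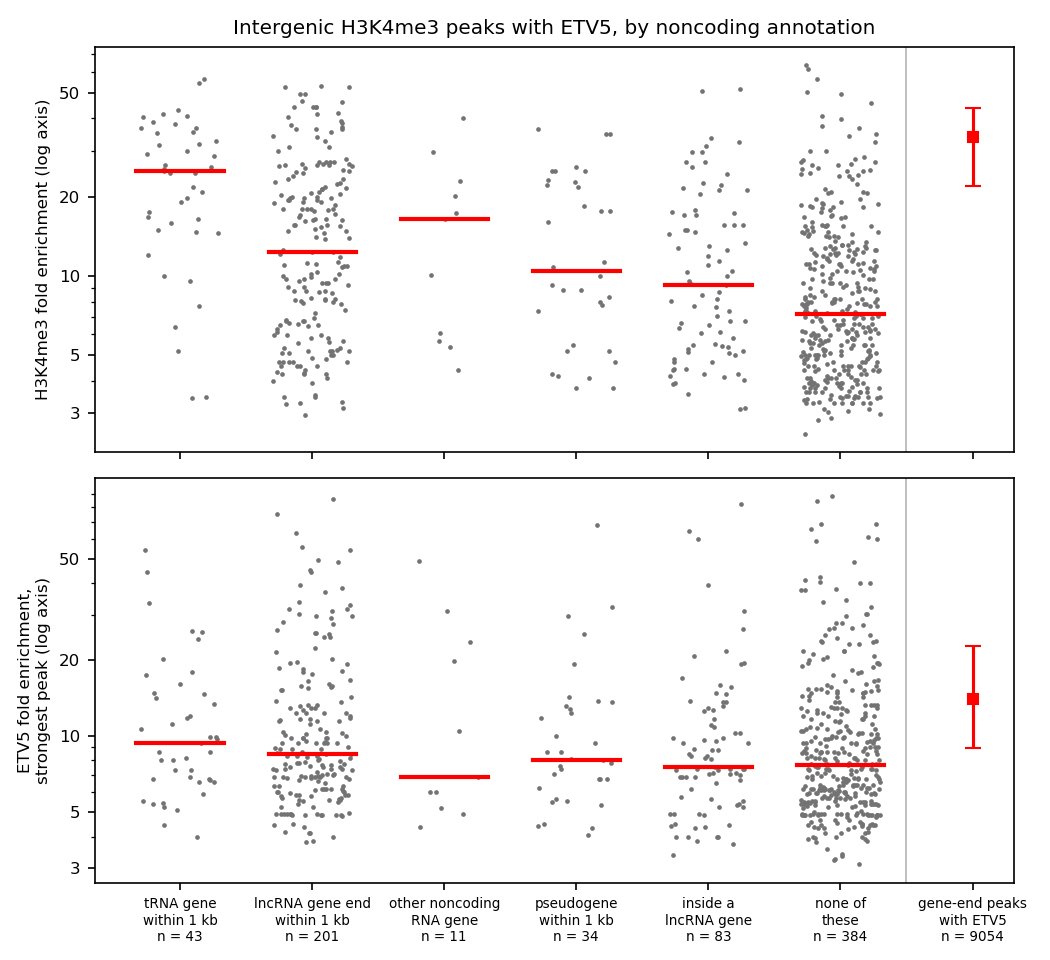
H3K4me3 fold enrichment (top, log axis) and fold enrichment of the strongest ETV5 peak (bottom, log axis) of the 756 intergenic peaks by annotation class, 1 point per peak, with red lines at medians; the rightmost square and bar give the median and quartiles of gene-end peaks with ETV5 (n = 9054). H3K4me3 medians range from 25.3 beside tRNA genes to 7.20 in the unannotated class, and ETV5 medians lie between 6.87 and 9.35.

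Transfer RNA genes, short genes transcribed by RNA polymerase III whose active copies carry H3K4me3 beside them, marked the class of the 756 with the highest median H3K4me3. The 43 peaks lay within 1 kb of 70 distinct tRNA genes of 408 in the gene table, on 14 chromosomes, with 12 of the peaks on chromosome 13, and 18 peaks lay beside more than 1 tRNA gene. H3K4me3 reached 20-fold in 26 of the 43 (60.5%), against 21.2% of all 756. The median of the 43, 25.3-fold, was near the 26.1-fold of all H3K4me3 peaks under 3500 bp. It was below the 33.9-fold of gene-end peaks with ETV5. The 14 tRNA-side peaks without ETV5 had a median H3K4me3 fold of 5.05. The strongest ETV5 of the class, 54.2-fold from 132 tags, lay beside the proline tRNA genes n-TPcgg2 and n-TPagg2 between Mpzl1 and Rcsd1 (chr1:165641429-165643338). Next came a 44.1-fold peak near the threonine tRNA gene n-TTcgt3 and the lncRNA gene Gm11205 (chr11:79703552-79705107). Spearman's rho of ETV5 with H3K4me3 fold was 0.518 over the 43. The class also holds 11 peaks with a lncRNA end within 1 kb. Many tRNA genes and pseudogenes have near-identical copies, and the sources used here do not say how reads matching several copies were placed.

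Peaks at lncRNA gene ends lay mostly at a start. Off chromosome 18, 207 had such an end within 1 kb, and 161 of these had a start within 1 kb. The class of 83 deeper inside lncRNA genes is not part of the 207. Annotated start sites were used for 732 of the 756, on chromosomes other than 18. Of these, 163 had a lncRNA start within 1 kb (22.3%), against 77 of 648 without ETV5 (11.9%). The H3K4me3 summit lay a median of 179 bp past the start, downstream of it in 130 and upstream in 33. The strongest ETV5 summit lay a median of 89 bp past the start, downstream in 107 and upstream in 56, and 55.8% of ETV5 summits against 46.6% of H3K4me3 summits were within 200 bp of it. These medians are of signed positions, with quartiles from -48.5 to 301.5 bp for ETV5 and from 78.5 to 320 bp for H3K4me3. ETV5 summits thus spread over both sides of the start, and more of them lay within 200 bp of it. The median unsigned distance was not computed.

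**Figure D4:**
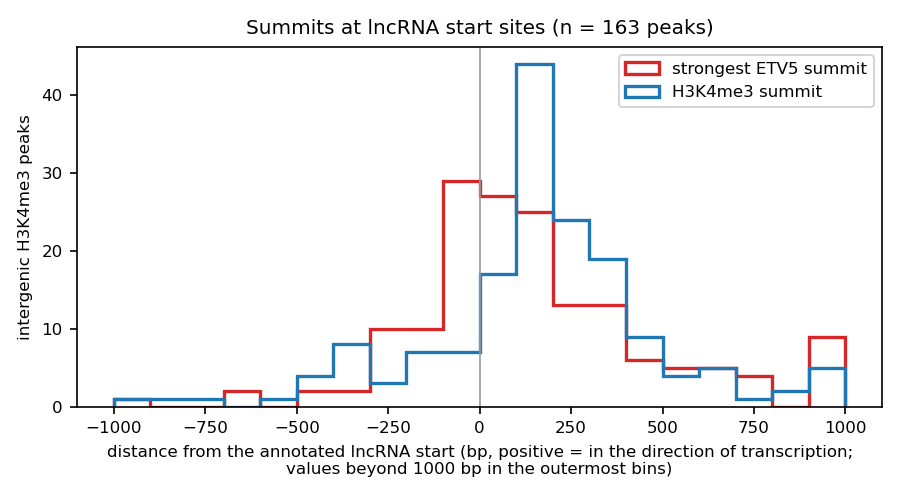
Distance of the strongest ETV5 summit and of the H3K4me3 summit from the nearest annotated lncRNA start in bp (positive in the direction of transcription), for the 163 intergenic peaks with ETV5 and a lncRNA start within 1 kb, as counts of peaks per 100 bp. H3K4me3 summits gather downstream of the start (median signed position 179 bp), and ETV5 summits spread over both sides of it (median signed position 89 bp).

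The ETS core was found in a share of these starts that lay between other lncRNA starts and coding starts. Motif letters were counted on both strands in the same 300-base windows; CCGGAA contains GGAA, and CCGGAAGT contains both. CCGGAA was in 44 of 203 start windows beside the peaks (21.7%, interval 16.2 to 28.0), against 10 of 85 beside intergenic peaks without ETV5 (11.8%, interval 5.79 to 20.6), 33.2% of coding starts at gene-end peaks with ETV5, 7.94% of all lncRNA starts and 14.9% of all starts. CCGGAAGT was in 3.45% with ETV5 and 1.18% without, against 3.89% of all starts. The bare GGAA was in 98.0% with ETV5 and 98.8% without, against 96.0% of all starts. Base composition moved with these shares: median GC was 55.7% with ETV5, 48.7% without and 62.7% at coding starts, and its part in them was not tested.

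Windows with the core lay more often beside the stronger ETV5 peaks. Among peaks at lncRNA starts, CCGGAA was present in 14 of 29 with an ETV5 fold of at least 20 (48.3%, interval 29.4 to 67.5), 10 of 39 from 10 to 20 (25.6%) and 16 of 95 below 10 (16.8%, interval 9.94 to 25.9). The median ETV5 fold was 12.3 in the 40 peaks with the core and 8.23 in the 123 without. In those 40 the nearest copy of the core lay a median of 44 bp from the ETV5 summit, within 100 bp in 26. Cores were sought only in the start windows, and many ETV5 summits lay near a start, so short distances were partly built in. No control distance was computed. Median H3K4me3 fold differed as well, at 20.3 with the core and 14.6 without.

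Listed noncoding genes were a small part of the set. Of 69 named lncRNA genes in the gene table, 16 had an end within 5 kb of these peaks, as had 14 of 90 listed microRNA genes and 5 of 27 abundant structural RNA genes. Over all genes of these kinds in the table, 343 of 12697 lncRNA genes (2.70%) and 25 of 1228 microRNA genes (2.04%) did. Among the listed lncRNA genes, ETV5 was strongest at Snhg20 (48.5-fold, 108 tags; H3K4me3 40.3-fold), a small nucleolar RNA host gene, and at Dleu2 (44.9-fold, 78 tags; H3K4me3 44.2-fold), whose transcript carries the miR-15a and miR-16-1 hairpins. Lower values, in ETV5 fold, were found at Norad (13.6), a noncoding RNA that binds Pumilio proteins, Mir22hg (13.2), Snhg5 (12.9) and Snhg17 (7.53). Oip5os1 paired a strong H3K4me3 peak of 49.2-fold with ETV5 of 7.20-fold. At Trp53cor1, beside the p53 target Cdkn1a, both were near the lower limit, at 3.98-fold for ETV5 and 4.55-fold for H3K4me3.

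The X-inactivation centre held 4 peaks between Tsx and Zcchc13. The peak at Xist, the RNA that coats the inactive X, had ETV5 of 8.88-fold from 15 tags and H3K4me3 of 19.5-fold, and lay 915 bp from an Xist end and 2639 bp from an end of Tsix, its antisense partner. At Jpx, a noncoding activator of Xist, ETV5 was 6.12-fold from 9 tags. On the X as a whole 26 of 67 intergenic H3K4me3 peaks held ETV5 (38.8%, interval 27.1 to 51.5), against 730 of 1363 on autosomes (53.6%, interval 50.9 to 56.2). Single autosomes ranged from 34.9% on chromosome 10 to 63.4% on chromosome 5, a span that takes in the X.

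Among structural RNAs, ETV5 was 11.9-fold at a peak 2583 bp from Rn7s2, a signal recognition particle RNA gene, and 10.5-fold at Rnu2-10, a U2 spliceosomal RNA gene. It was 6.87-fold at Rny1 and 6.00-fold at Rny3, which encode Y RNAs and lie together near Pdia4, and 6.01-fold at Terc, the telomerase RNA. These 5 rest on 9 to 19 ETV5 tags each.

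**Figure D5:**
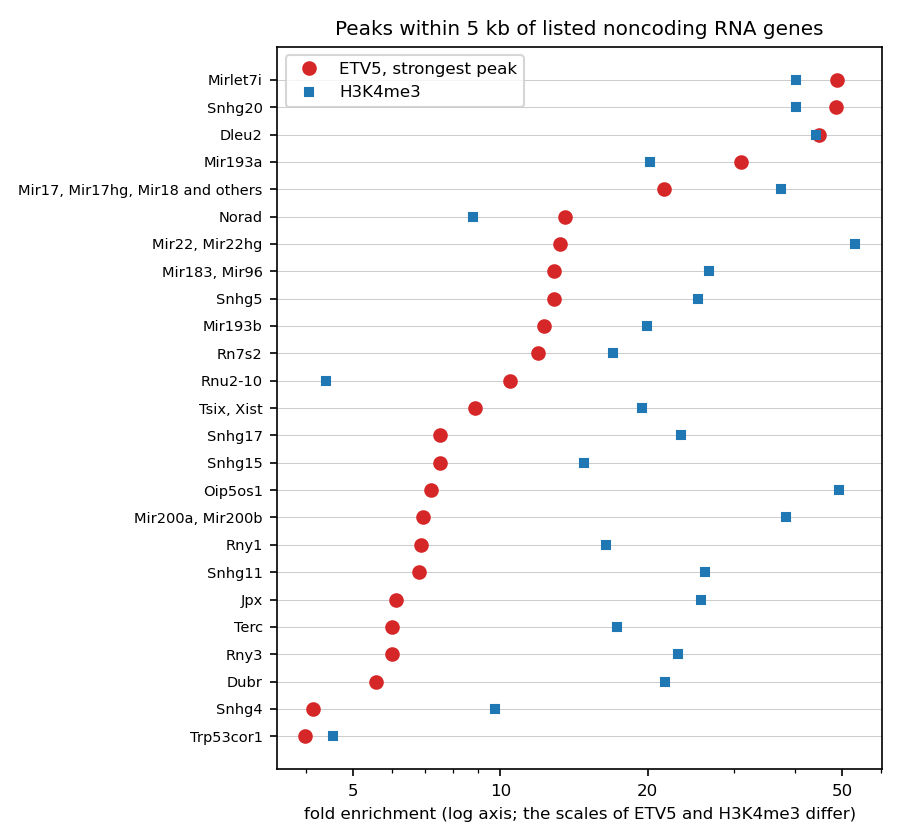
Fold enrichment (log axis) of the strongest ETV5 peak (circles) and of H3K4me3 (squares) in intergenic peaks within 5 kb of listed noncoding RNA genes, 1 row per nearest peak, ordered by ETV5. Mirlet7i (48.8), Snhg20 (48.5) and Dleu2 (44.9) are highest in ETV5, and the H3K4me3 values, on a scale of their own, do not follow that order.

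MicroRNA genes are cut from longer primary transcripts, so their promoters can lie some distance from the hairpin. Within 5 kb of a hairpin gene lay 17 of the 756 peaks (2.25%), against 4 of 674 without ETV5 (0.593%) and 1.86% of all H3K4me3 peaks under 3500 bp. Within 25 kb, a window chosen after the values were seen, lay 59 (7.80%, interval 5.99 to 9.95), against 23 without ETV5 (3.41%, interval 2.18 to 5.08) and 6.83% of all. The shares with ETV5 were thus near those of all H3K4me3 peaks. The 59 had 71 microRNA genes in reach, in clusters that share seeds. The mature RNAs below (RefSeq, GRCm38.p6) show which seeds are shared and which are not at the clusters described next, and were chosen after the values were seen. The seed, bases 2 to 8 that pair with targets, is in capitals.
let-7i-5p: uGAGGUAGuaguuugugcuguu
let-7a-5p: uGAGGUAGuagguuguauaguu
let-7d-5p: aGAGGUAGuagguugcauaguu
let-7f-5p: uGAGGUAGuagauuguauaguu
miR-17-5p: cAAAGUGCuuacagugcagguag
miR-20a-5p: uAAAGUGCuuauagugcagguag
miR-18a-5p: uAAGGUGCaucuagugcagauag
miR-19a-3p: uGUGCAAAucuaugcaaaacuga
miR-19b-3p: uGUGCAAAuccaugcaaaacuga
miR-92a-3p: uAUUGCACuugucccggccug
miR-193a-3p: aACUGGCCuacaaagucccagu
miR-193b-3p: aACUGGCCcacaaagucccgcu
miR-200b-3p: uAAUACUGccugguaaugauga
miR-429-3p: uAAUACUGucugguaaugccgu
miR-200a-3p: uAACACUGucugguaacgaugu
miR-23a-3p: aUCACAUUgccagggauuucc
miR-27a-3p: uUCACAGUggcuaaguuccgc
miR-24-3p: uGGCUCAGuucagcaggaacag
miR-322-5p: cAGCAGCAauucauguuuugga
miR-15a-5p: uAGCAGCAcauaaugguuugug
miR-16-5p: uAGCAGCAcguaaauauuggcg
The let-7 group, inhibitors of growth and of RAS in many cell types, shared the seed GAGGUAG across separate loci. The let-7i hairpin lay inside a peak of 40.2-fold H3K4me3 with an ETV5 peak of 48.8-fold (78 tags; chr10:122984686-122986949). The let-7a-1, let-7f-1 and let-7d hairpins lay 8003, 8358 and 10161 bp from a peak of 61.3-fold H3K4me3 with 34.4-fold ETV5 (chr13:48544912-48546723), the second highest H3K4me3 of the 756.

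The Mir17hg locus, the growth-linked miR-17 to miR-92a cluster, held a peak with 3 ETV5 peaks, the strongest of 21.6-fold, and 37.5-fold H3K4me3 (chr14:115040187-115042724), 2095 bp from the miR-17 hairpin. Both miR-193 genes, which share the seed ACUGGCC on separate chromosomes, had a peak: miR-193a lay 421 bp from one with ETV5 of 31.0-fold and H3K4me3 of 20.2-fold, and miR-193b lay 1497 bp from one with ETV5 of 12.3-fold and H3K4me3 of 19.9-fold. The miR-200b, miR-200a and miR-429 cluster, known for holding epithelial identity through repression of Zeb factors, lay 3434 to 5197 bp from a peak with strong H3K4me3 (38.4-fold) and modest ETV5 (6.95-fold from 12 tags). A second peak, 22294 to 24057 bp from these hairpins, had the opposite balance, with ETV5 of 23.6-fold and H3K4me3 of 12.8-fold.

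Between Nanos3 and Zswim4 on chromosome 8, 4 peaks lay within 15.1 kb between the miR-181c and miR-181d hairpins and the miR-23a, miR-27a and miR-24-2 hairpins. The one 11039 bp from miR-23a had ETV5 of 59.5-fold and H3K4me3 of 13.5-fold, while the one 4808 bp from miR-181c had ETV5 of 4.18-fold and H3K4me3 of 14.4-fold. At miR-322, which shares the seed AGCAGCA with miR-15a and miR-16, a peak 2601 bp from the hairpin on the X had ETV5 of 29.3-fold and H3K4me3 of 21.5-fold. miR-15a and miR-16 themselves, within Dleu2, lay 16453 and 16591 bp from a peak of 22.6-fold H3K4me3 and 5.63-fold ETV5. Dleu2's own start peak, described above, had ETV5 of 44.9-fold.

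The 10 peaks with the highest ETV5 fold included several far from any noncoding gene. The highest, 88.4-fold from 271 tags with H3K4me3 of 32.5-fold, lay 6440 bp from Elovl5 (chr9:77910081-77911803), which encodes an elongase of polyunsaturated fatty acids. Next were the Gm2885 peak 45435 bp from Ezr, which encodes the membrane-to-actin linker ezrin (85.6-fold, 227 tags), a peak 7887 bp from the zinc-finger gene Glis2 (84.6-fold, 154 tags) and a peak inside the lncRNA gene C030034I22Rik, 20365 bp from Akain1 (81.9-fold, 234 tags). The Elovl5 and C030034I22Rik peaks also had strong H3K4me3, the second of 50.7-fold, while the Glis2 peak had 8.80-fold. Further ones lay 7885 bp from Armc12 (74.8-fold), 77207 bp from the chromatin remodeller gene Chd2 (65.1-fold) and 92213 bp from the ubiquitin ligase gene Rnf19a (64.4-fold). The Armc12 peak is the E230001N04Rik peak described above, 320 bp from an end of that lncRNA gene. The Rnf19a peak lay inside a lncRNA gene. All of these ETV5 values rest on at least 105 tags.

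High ETV5 without high H3K4me3 was found as well. Beside the pseudogene Gm6787, 6381 bp from Was, an actin regulator of blood cells, ETV5 was 67.8-fold from 109 tags over H3K4me3 of 3.76-fold from 23 tags. Between 103564 and 104896 bp from Zfat, 3 peaks lay within 2.80 kb. The first had the highest H3K4me3 of the 756, 63.5-fold, with ETV5 of 21.6-fold, and lay 21197 bp from Mir30d. The other 2 flanked and shared 1 ETV5 peak of 68.3-fold, over H3K4me3 of 11.9-fold and 3.76-fold, so the strong ETV5 summit and the strong H3K4me3 summit of this group were in separate peaks.

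Among the 10 peaks with the highest H3K4me3 fold, ETV5 varied widely. The peak 33153 bp from Pum2, which encodes a Pumilio RNA-binding protein, had 56.5-fold H3K4me3 and 15.8-fold ETV5. The one beside the leucine tRNA gene n-TLcag3, 8594 bp from Fcgr4, had 56.1-fold H3K4me3 and ETV5 of 6.74-fold from 10 tags. The peak 95 bp from Mir760 and beside an arginine tRNA gene had 54.4-fold H3K4me3 and ETV5 of 24.0-fold from 63 tags. Mir22hg had 53.0-fold H3K4me3 with ETV5 of 13.2-fold, the peak beside B330016D10Rik had 52.7-fold with ETV5 of 18.5-fold, and the peak beside Zfp652os had 52.5-fold with ETV5 of 8.01-fold. The peak 20839 bp from Hsd17b12, which encodes a fatty-acid elongation reductase, had 51.8-fold with ETV5 of 7.41-fold.

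Neighbouring coding genes included AT2, lung-lineage and ERK-feedback genes, in numbers close to those beside intergenic peaks without ETV5. Peaks with a listed gene as a flanking coding gene numbered 5 with ETV5 and 5 without for AT2 markers, 22 with and 28 without for lung epithelial transcription factors, 12 with and 13 without for MAPK feedback genes and 0 with and 4 without for AT1 markers, of 756 with ETV5 and 674 without. Counts this small cannot separate the sets. For the other cell types the counts were 2 with ETV5 and 1 without for endothelial markers, 0 with and 2 without for mesenchymal, 0 with and 2 without for leukocyte, and 1 with and 1 without for ciliated and secretory markers.

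Of AT2 genes, Sftpb, which encodes surfactant protein B, had a pair of peaks 26873 and 27686 bp from its end that shared 1 ETV5 peak of 15.3-fold (43 tags). Nkx2-1, the transcription factor that defines the lung lineage, had a peak 10776 bp away with 3 ETV5 peaks, the strongest of 9.35-fold from 20 tags, and H3K4me3 of 21.2-fold over 2688 bp. Slc34a2, a phosphate transporter of AT2 cells, had one 139025 bp away with ETV5 of 19.3-fold, which lay nearer to Anapc4, at 43594 bp. Scd1, a fatty acid desaturase, had one at 6048 bp with ETV5 of 8.01-fold. Among lung transcription factors, ETV5 was highest in the gap between Irx1 and Irx2 (20.9-fold). Between Cebpb, a lung epithelial regulator, and Ptpn1 lay 4 peaks (6.37 to 15.6-fold, with H3K4me3 of 3.33 to 5.79-fold). They were 87307 to 234857 bp from Cebpb and 5461 to 153011 bp from Ptpn1. Between Foxp4 and 1700122O11Rik lay 4 (9.62 to 13.6-fold), 49543 to 77740 bp from Foxp4 and 34373 to 62570 bp from 1700122O11Rik. Among these, a neighbouring pair shared 1 ETV5 peak of 12.6-fold.

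The strongest ETV5 beside signalling genes lay near AP-1 genes, immediate targets of ERK. A peak 23790 bp from Jun had ETV5 of 59.6-fold from 144 tags and H3K4me3 of 17.0-fold, and a peak 9093 bp from Fos had ETV5 of 58.5-fold from 167 tags and H3K4me3 of 25.3-fold. The Jun peak is the Junos peak named above, with its H3K4me3 summit 376 bp past an annotated start of that lncRNA gene. Around the ERK inhibitors, ETV5 was 18.7-fold in the gap between Tmco5 and Spred1, 18.0-fold at 279917 bp from Ndfip2 and 302732 bp from Spry2, and 6.20-fold at 7705 bp from Spry1. These are neighbours on the chromosome, and which gene a peak acts on was not measured.

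Distance to coding genes differed with ETV5 too. The median distance from the summit to the nearest protein-coding gene end was 20299.5 bp (interval 18043 to 22813) with ETV5 and 26364.5 bp (interval 23835 to 30194) without, above the floor of 5 kb set by the rule. More than 50 kb away were 168 with ETV5 (22.2%) and 32.2% without, and more than 100 kb away were 60 with ETV5. The nearest coding gene carried H3K4me3 at an end of its own for 75.1% with ETV5 and 73% without. Both were below the 88.4% of all H3K4me3 peaks under 3500 bp, a set that includes the peaks at gene ends themselves. The most remote lay 665683 bp from Mctp2 with ETV5 of 6.17-fold from 9 tags, and the next 589381 bp from F2rl3 with ETV5 of 24.3-fold and H3K4me3 of 49.4-fold (chr8:73352287-73354557), so the pair farthest from coding genes spanned weak and strong marks.

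The 756 peaks fell in 599 gaps between neighbouring coding genes, of which 103 held at least 2 and 37 at least 3. The fullest was that between Cstad and 1700001O22Rik on chromosome 2, with 6 peaks over 114 kb whose ETV5 ran from 7.06 to 38.3-fold. Gaps between Tex44 and Ptma (6.52 to 42.2-fold) and between Katnal1 and Hmgb1 (6.85 to 23.5-fold) held 5 each. The gap between Wnt7b, a Wnt ligand of lung epithelium, and Ppara, a nuclear receptor of fatty acid oxidation, held 4 with ETV5 up to 63.1-fold at D130051D11Rik. Another H3K4me3 peak lay within 5 kb of 137 of the 756 (18.1%), against 12.5% of those without ETV5. The median distance to the nearest other H3K4me3 peak was 19932 bp with ETV5 and 24508.5 bp without. Over all H3K4me3 peaks under 3500 bp it was 20969 bp, so the spacing with ETV5 was near that of all peaks.

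At the limits of the rule, the widest peaks taken were 3333 bp (between Cdk1 and Ank3), 3280 bp (tRNA genes near Osbp) and 3206 bp (tRNA genes near Trim27), and the narrowest intergenic ones left out for width measured 3689, 3779 and 3856 bp. The nearest to a coding gene were 5001 bp from Tlcd3b, 5031 bp from Dusp11 and 5037 bp from Sfpq. The nearest left out were 4998 bp from Klf9, 4979 bp from Hpca and 4925 bp from Lca5. The Klf9 peak, with ETV5 of 29.8-fold, thus lay just short of the limit, and 10 intergenic peaks of at least 3500 bp also held ETV5.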

How the data were processed

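ETV5, H3K4me3 and input chromatin of AT2 cells gave 1 library each, and MACS2 2.1.0.20150420 called peaks sample by sample, per the file headers and the submitters' notes. The deposited peak positions, summit pileup (a tag coverage signal), fold enrichment (a ratio to local background), and −log10 p and −log10 q values are the authors' own. Per the file headers the ETV5 list used 75 bp tags extended to 203 bp, the H3K4me3 list 50 bp tags extended to 288 bp, both with at most 1 tag kept per position and a q-value limit of 0.05, each against its own input total. No aligner is named in these sources. Labels name mm9, but 66.0% of H3K4me3 summits lie within 1 kb of GRCm38 RefSeq protein-coding gene ends, so the coordinates were read as GRCm38.

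Overlaps, distances to gene ends and shares were computed in Python 3.11.15 (numpy 2.4.6, pandas 2.3.3, scipy 1.17.1), checked with bedtools 2.31.1 and tested on simulated data. The gene table gives ends without strand, and start windows come from RefSeq sequences that leave out chromosome 18. Named peaks are the 10 highest in ETV5 fold and in H3K4me3 fold, the 5 widest, the 5 farthest from coding genes, the 5 with most ETV5 peaks, those at the limits of the rule, and those beside listed noncoding and coding genes; peaks named for gaps, seed families, pseudogenes and tRNA genes were chosen after their values were seen. The members and gene lists were chosen with earlier results of these data known. Alternatives were other overlap rules, stricter peak limits, other distances and noncoding annotations. With 1 library per antibody no test between groups was run.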

Additional observations from a re-analysis of the deposited data

How the results depend on the processing

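The count, the share of intergenic H3K4me3 peaks holding ETV5, the noncoding share and the medians were recomputed under other settings. Requiring the ETV5 summit, or at least 50% of the ETV5 peak, inside the H3K4me3 peak gave shares of 45.4% and 45.4% and median H3K4me3 folds of 10.5 and 10.5. An ETV5 −log10 q of at least 10 left 419 peaks (29.3%), with median ETV5 fold 12.3, median H3K4me3 fold 11.4 and 3.34% with at least 2 ETV5 peaks. An ETV5 fold of at least 10 left 272 (19.02%), with a noncoding share of 37.5%, median ETV5 fold 15.7, median H3K4me3 fold 12.8 and 1.10% with at least 2 ETV5 peaks. An H3K4me3 −log10 q of at least 10 gave a share of 59.1% and a median H3K4me3 fold of 11.1. An H3K4me3 fold of at least 10 left 352 (76.0%), with a noncoding share of 45.2%, median ETV5 fold 9.78, median H3K4me3 fold 18.8 and 11.6% with at least 2 ETV5 peaks. Beyond 2 kb from coding gene ends the share was 55.8% and the median distance 14107.5 bp; beyond 10 kb the distance was 28727 bp; beyond 20 kb, 382 peaks (48.7%) had a noncoding share of 30.1% and a distance of 43105.5 bp.

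The noncoding share was 47.2% within 5 kb, 27.0% within 500 bp, 28.6% of the 732 off chromosome 18 with lncRNA genes counted by their start and the other kinds by either end, 10.4% with named genes only and 38.2% with pseudogenes, against 36.2%, 14.7%, 15.6%, 3.71% and 21.2% without ETV5. Chosen after seeing the data were the share without tRNA genes (29.6%, against 17.8% without ETV5) and those by H3K4me3 fold (19.3% below 5, 26.7% from 5 to 10, 57.5% at 20 or more). The share was higher with ETV5 than without under each of these annotations, but not at an H3K4me3 fold of 20 or more. The cause was not tested. No paired analysis was possible because each antibody has 1 library.

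A median of 16 ETV5 tags at the summit limits the weaker peaks, and 5715049 ETV5 tags are few for calling sites, so a peak without ETV5 is one where none was called at this depth.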
